A study of Mus musculus with 4 samples.

Results

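The 39 genes described here encode the molecules of the mouse major histocompatibility complex (MHC) and the proteins that load and control them. They are all genes whose array symbol starts with H2-, plus B2m, Tap1, Tap2, Tapbp, Tapbpl, Nlrc5, Cd74, Ciita, Cd1d1 and Mr1, among the 19938 genes that had a probe set with a single gene symbol. By role, 6 belong to class I loading and control, 1 carries a classical class I symbol (H2-K2, a transcribed pseudogene in RefSeq), 21 are nonclassical class I genes and 10 belong to class II. The remaining gene, H2-Ke6, lies in the MHC and encodes a steroid dehydrogenase. The main classical genes, H2-K1 and H2-D1, appeared only on probe sets that carry several symbols, and those are reported apart.

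Small intestine RNA from C57BL/6 mice was hybridised to 4 Affymetrix arrays, 2 from wild-type mice and 2 from mice with the genotype CFLARs Tg. CFLARs is the short form of the caspase-8 regulator that is encoded by Cflar. Wild-type replicate 1 is titled XX, wild-type replicate 2 XY, CFLARs Tg replicate 1 XCFX and CFLARs Tg replicate 2 XCFY, so each genotype has an XX-type and an XY-type array. Promoter, transgene copy number, age, intestinal segment and the number of animals behind an array are not stated in the labels. P-values therefore measure only the spread between these samples, which may be partly technical. Within each genotype that spread also holds the gap between title types. These differ in Xist (12.92 in XX and 6.78 in XY, 12.90 in XCFX and 6.62 in XCFY), so the 2 arrays of a genotype are not repeats of 1 RNA sample. The comparison asks how the presentation machinery differs between intestines of the 2 genotypes.

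Class I molecules pair a heavy chain with beta-2 microglobulin (B2m) and display peptides that proteasomes cut in the cytosol. The peptides enter the endoplasmic reticulum through the TAP transporter, a dimer of Tap1 and Tap2, and tapasin (Tapbp) and its relative Tapbpl help to fit them. Interferon-gamma raises this set through IRF1 and the transactivator Nlrc5. Class II molecules are alpha-beta dimers that travel with the invariant chain (Cd74) and receive peptides with the help of H2-DM under the transactivator Ciita. In the intestine, class II is a hallmark of dendritic cells, macrophages and B cells and can be induced on enterocytes, while several nonclassical class I genes are expressed by the epithelium itself.

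The deposited log2 values of the 4 arrays had medians from 8.31 to 8.33. The SD of log2 differences over autosomal genes was 0.125 between the wild-type arrays and 0.231 between the CFLARs Tg arrays. Xist and 3 Y-linked genes followed the titles, and where they should be silent they read 5.13 to 6.78, which gives a scale for background. Cflar differed by 0.08 on the log2 scale, and which part of the transgene its probe sets match is not known, so it does not check the genotype. All 9 enterocyte markers listed were among the genes fitted, at a mean log2 value of 12.58 to 13.40 per array.

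Sequences before the transcription starts are shown first for 6 members and for H2-Q6 and H2-D1, which lie on shared probe sets. They were chosen to set genes that rose beside genes that were not called. Each stretch holds the 250 bases before the RefSeq start on GRCm38.p6, on the strand of the gene. RefSeq windows were used for 26 of the 39 members. The class II members without one here were Cd74, Ciita, H2-Ab1 and H2-Ea, and the counts of matches do not cover them. A member without a window here may still have a start in RefSeq. Capitals mark matches, on either strand, to the Y box core CCAAT, the cyclic AMP response core TGACG, the interferon-gamma activated site core TTCNNNGAA, a pair of GAAA runs separated by any 2 bases, TTTCACTT and GGGGATT. The last 2 were chosen after these sequences were read. Letters that a motif leaves free are not capitalised.
H2-M2 (chr17:37483555-37483804, minus strand): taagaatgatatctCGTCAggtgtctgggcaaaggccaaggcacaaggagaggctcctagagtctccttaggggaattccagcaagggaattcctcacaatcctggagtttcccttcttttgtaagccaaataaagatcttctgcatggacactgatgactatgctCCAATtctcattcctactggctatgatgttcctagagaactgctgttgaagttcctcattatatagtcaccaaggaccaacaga
Tap1 (chr17:34187306-34187555, plus strand): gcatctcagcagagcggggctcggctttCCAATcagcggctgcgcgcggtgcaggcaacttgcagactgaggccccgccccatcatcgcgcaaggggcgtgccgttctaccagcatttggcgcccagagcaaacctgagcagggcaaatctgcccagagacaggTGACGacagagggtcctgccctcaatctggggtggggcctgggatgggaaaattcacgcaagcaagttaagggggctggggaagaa
H2-Q4 (chr17:35379367-35379616, plus strand): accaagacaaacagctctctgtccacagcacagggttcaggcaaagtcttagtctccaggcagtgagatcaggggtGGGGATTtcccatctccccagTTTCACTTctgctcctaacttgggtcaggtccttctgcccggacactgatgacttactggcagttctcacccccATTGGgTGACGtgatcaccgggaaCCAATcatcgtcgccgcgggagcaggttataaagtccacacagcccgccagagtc
H2-Q6 (chr17:35424600-35424849, plus strand): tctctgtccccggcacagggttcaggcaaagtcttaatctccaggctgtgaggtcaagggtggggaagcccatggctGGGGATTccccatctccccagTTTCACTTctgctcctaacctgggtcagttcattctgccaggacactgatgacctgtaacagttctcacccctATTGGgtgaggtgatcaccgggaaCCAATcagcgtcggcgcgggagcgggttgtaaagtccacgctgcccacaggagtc
H2-D1 (chr17:35262844-35263093, plus strand): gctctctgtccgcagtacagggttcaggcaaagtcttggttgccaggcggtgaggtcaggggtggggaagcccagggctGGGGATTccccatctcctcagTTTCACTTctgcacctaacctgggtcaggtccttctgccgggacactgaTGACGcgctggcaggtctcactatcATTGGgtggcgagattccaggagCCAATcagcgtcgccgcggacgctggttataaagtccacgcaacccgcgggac
H2-Q2 (chr17:35342057-35342306, plus strand): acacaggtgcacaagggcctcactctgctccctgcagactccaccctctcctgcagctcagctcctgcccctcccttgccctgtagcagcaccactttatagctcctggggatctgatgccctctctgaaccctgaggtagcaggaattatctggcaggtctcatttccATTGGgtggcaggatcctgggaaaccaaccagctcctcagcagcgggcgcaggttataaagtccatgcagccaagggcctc
H2-Aa (chr17:34287824-34288073, minus strand): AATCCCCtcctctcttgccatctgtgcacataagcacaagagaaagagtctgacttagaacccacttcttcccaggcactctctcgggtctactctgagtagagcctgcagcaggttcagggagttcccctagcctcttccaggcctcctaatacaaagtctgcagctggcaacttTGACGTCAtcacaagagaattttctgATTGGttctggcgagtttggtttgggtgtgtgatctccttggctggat
H2-Eb1 (chr17:34305617-34305866, plus strand): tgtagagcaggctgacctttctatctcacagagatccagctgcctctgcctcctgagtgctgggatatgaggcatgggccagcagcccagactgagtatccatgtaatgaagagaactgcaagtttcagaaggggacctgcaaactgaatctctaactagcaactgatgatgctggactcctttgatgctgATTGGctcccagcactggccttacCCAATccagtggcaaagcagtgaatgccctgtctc

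H2-Q4, H2-Q6 and H2-D1 carried GGGGATT followed by TTTCACTT and then by the Y box core on both strands. The first bases lay at -174 in H2-Q4 and -171 in H2-D1 for the former, and at -153 and -150 for the latter, counted from the start. Over all 32851 windows of 300 bases, 3.10% held GGGGATT and 1.60% held TTTCACTT. Both were also found before H2-T3, whose probe set read lower in CFLARs Tg, before H2-T22, whose probe set was not called, and before H2-K1. H2-K1 and H2-D1 lie on probe sets that were level. H2-Aa held GGGGATT, at -250, but not TTTCACTT. In the H2-Q2 and H2-M2 stretches neither was found, while each held a Y box core, at -81 and -84. Each of the 6 class II genes with a window held a Y box core in at least 1 window, although 1 of the 2 H2-DMa windows held none, and 37.4% of all windows held one, and H2-Aa also held TGACG on both strands, which 20.8% of windows hold. TTCNNNGAA occurred in 8.30% of all windows and in 2 of the 16 nonclassical class I genes with a window. The spaced GAAA pair occurred in 3.44% of all windows and, among the members with a window, in B2m. Tap1 held TGACG and a Y box core. A match is a description of letters and not a binding site.

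In CFLARs Tg intestine 1 of 6 class I loading genes and 2 of 10 fitted nonclassical class I genes rose, and none of the 6 fitted class II genes was called. A filter left out the 30% of genes with the lowest mean, those under 7.48, and 24 of the 39 members were fitted. Of these, 3 rose (H2-M2, Tap1 and H2-Q4) and 1 fell (H2-Ke6) at a limma adjusted p under 0.05, while 20 did not pass. Over all 13956 genes fitted, 19.3% were called, 8.44% as higher and 10.9% as lower, so the members' share was near that background. Their median log2 difference was 0.05, against -0.01 over all genes. Both CFLARs Tg arrays lay above both wild-type arrays for 9 members and below for 10, compared with 32.0% and 37.6% of all genes. The members differ from each other more than these totals show, and they are described by role.

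**Figure D1:**
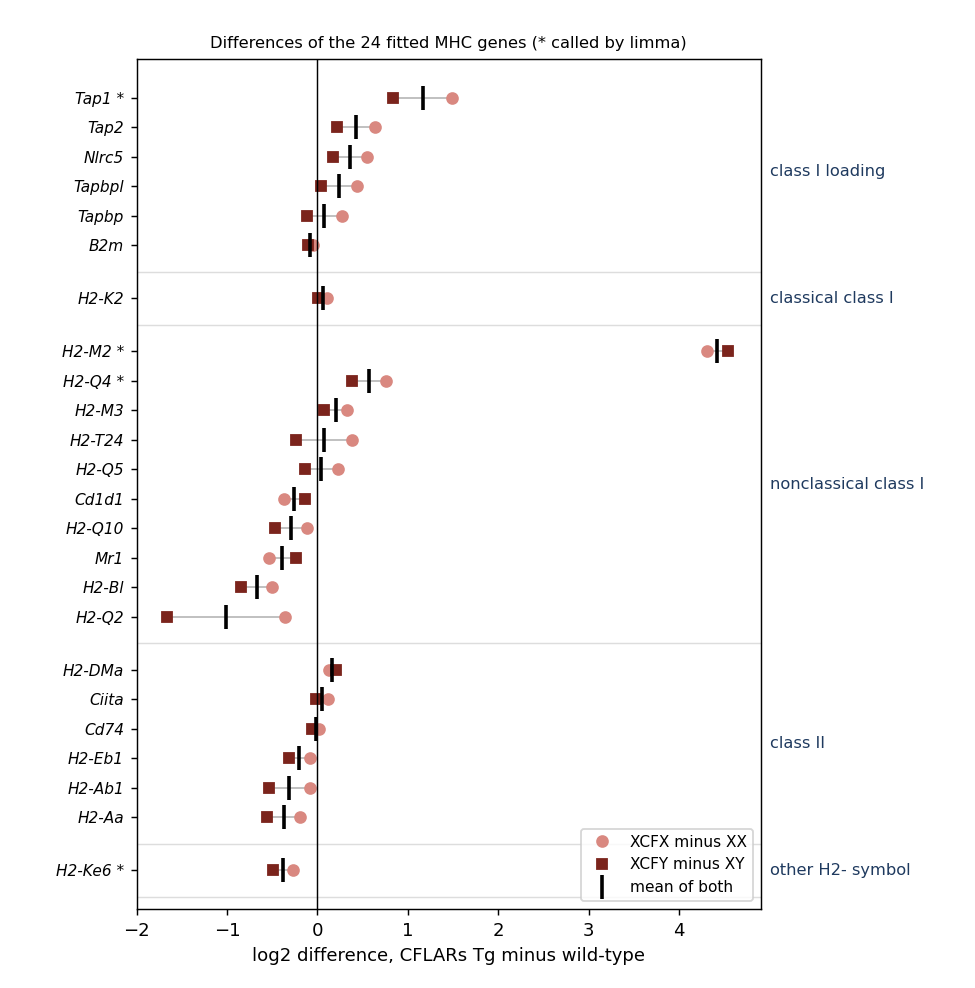
Log2 differences (CFLARs Tg minus wild-type) of the 24 fitted members by role, with the XX-type pair as circles, the XY-type pair as squares, their mean as a bar and called genes starred. H2-M2 stands alone at 4.42, Tap1 leads the loading genes at 1.16, and H2-Q2 has the lowest mean and the widest gap between the pairs.

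Among the loading genes, Tap1, which forms the peptide transporter with Tap2, rose. It read 9.52 and 9.71 in the wild-type arrays and 11.01 (XCFX) and 10.54 (XCFY) in the CFLARs Tg arrays. Tap1 was thus 2.24-fold higher, by 1.16 on the log2 scale (SE 0.17, limma adjusted p = 0.0240). Both CFLARs Tg arrays lay above both wild-type arrays, and the XCFX array was the highest. The call was lost without wild-type replicate 1 or 2 (adjusted p = 0.178 and 0.135), with differences of 1.07 and 1.25. Its partner Tap2 read 9.02 and 9.05 in wild-type and 9.66 and 9.27 in CFLARs Tg, without overlap (difference 0.43, SE 0.14, adjusted p = 0.0940). Tap2 passed without CFLARs Tg replicate 1 or 2 (adjusted p = 0.0202 and 0.00227). Here and below, a fit without a CFLARs Tg array leaves 1 array in that arm, which is assumed to vary like the wild-type pair that alone gives the spread. Such fits called 47.0% and 32.4% of all genes, so passing them says little about a single gene.

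The tapasin relative Tapbpl, a peptide editor, read 9.34 and 9.39 in wild-type and 9.78 and 9.43 in CFLARs Tg (difference 0.24, adjusted p = 0.232). It passed without CFLARs Tg replicate 2, the lower of the CFLARs Tg arrays (difference 0.41, adjusted p = 0.00680). Tapasin itself read 11.21 and 11.32 against 11.48 and 11.21, so that the groups overlapped (difference 0.08, SE 0.11). B2m, the light chain shared by class I molecules, read 13.56 and 13.62 in wild-type and 13.52 and 13.51 in CFLARs Tg, a difference of -0.08 (SE 0.06, adjusted p = 0.373).

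Nlrc5, the class I transactivator, gave different answers from different probe sets. The probe set with the highest mean, which stands for the gene by the rule, read 10.41 and 10.54 in wild-type and 10.97 and 10.71 in CFLARs Tg (difference 0.36, SE 0.11, adjusted p = 0.0789). This probe set passed without CFLARs Tg replicate 1 or 2 (adjusted p = 0.0475 and 0.00807). The array holds 19 probe sets for Nlrc5, and in 19 of them both CFLARs Tg arrays lay above both wild-type arrays. Their differences ran from 0.26 to 2.05, or 1.20-fold to 4.15-fold, with a median of 0.97, and 17 of the other probe sets differed by more than the one with the highest mean. When all probe sets of the table were fitted together, 13 of the 19 rose and 0 fell (limma adjusted p from 0.0150 to 0.0932 over the 19). Of all probe sets fitted, 13.4% were called in either direction. With the mean over its probe sets as the value of each gene, Nlrc5 rose by 1.04 (adjusted p = 0.0212). Probe sets of 1 gene are read from the same RNA samples and are not replicates.

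**Figure D2:**
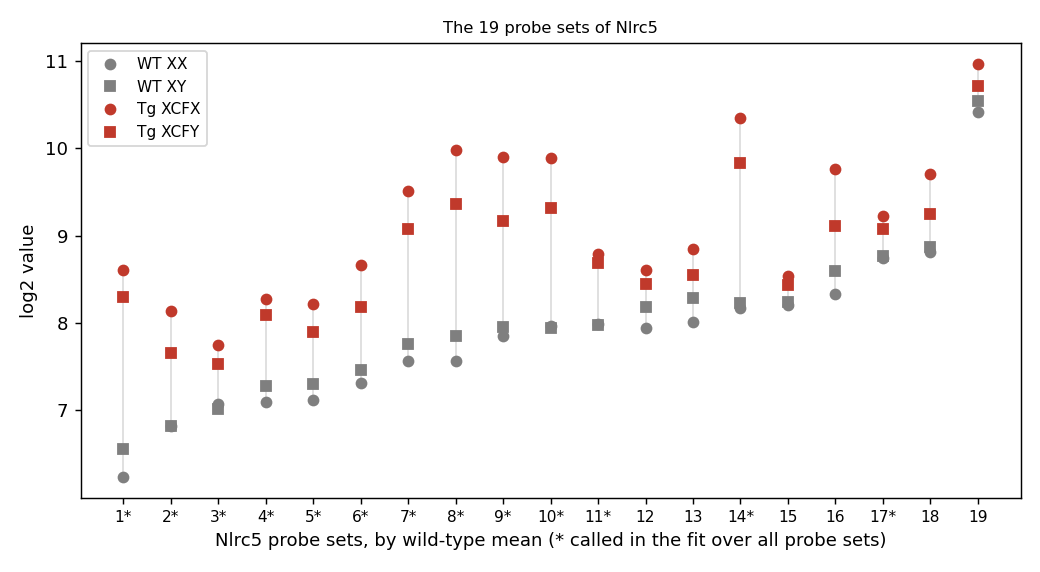
Log2 values of the 19 Nlrc5 probe sets in the 4 arrays, ordered by wild-type mean from 6.40 to 10.48, with wild-type in grey and CFLARs Tg in red. In every probe set both red points lie above both grey points and the XCFX array is the highest, and the probe set at the right end, which represents the gene by the rule, has the second smallest gap.

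H2-M2 was the nonclassical class I gene with the largest difference, and it ranked 3 among all 13956 fitted genes by size of rise. H2-M2 is one of the M-region class I genes. It read 6.35 and 6.46 in the wild-type arrays, within the range of background, and 10.65 and 11.00 in the CFLARs Tg arrays. CFLARs Tg was at least 21.4-fold higher, by 4.42 on the log2 scale (SE 0.13, limma adjusted p = 0.00106), and the pairs gave 4.30 and 4.54. Because its wild-type mean lies under the filter on low values, H2-M2 entered the fit only through its CFLARs Tg values, and it is the only fitted member of which this is true. The call held without wild-type replicate 1 or 2 (adjusted p = 0.0126 and 0.0138), and without a filter (adjusted p = 0.000706). Its neighbours by name did not share the rise: H2-M1, H2-M5, H2-M9, H2-M11 and 6 genes of the H2-M10 group read between 5.09 and 7.45 in every array.

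H2-M3, which presents formylated peptides, read 7.76 and 7.89 in wild-type and 8.09 and 7.97 in CFLARs Tg (difference 0.20, SE 0.08, adjusted p = 0.135). It passed without CFLARs Tg replicate 2 (difference 0.26, adjusted p = 0.0477). In the Q region, H2-Q4 rose from 9.73 and 9.76 to 10.49 and 10.14, or 1.48-fold, by 0.57 on the log2 scale (SE 0.13, limma adjusted p = 0.0453). Both CFLARs Tg arrays were higher, the XCFX array more so. That call was lost without a filter (adjusted p = 0.0514), after median centring (adjusted p = 0.0507) and without wild-type replicate 1 or 2 (adjusted p = 0.240 and 0.203). A probe set annotated to both H2-Q6 and H2-Q8 lies outside the rule and read 8.73 and 8.97 in wild-type and 10.19 and 10.03 in CFLARs Tg. In the fit over all probe sets it rose 2.40-fold, by 1.26 on the log2 scale (SE 0.11, adjusted p = 0.0192), and it was not called without wild-type replicate 1 or 2 (adjusted p = 0.0956 and 0.0636). H2-Q5, a transcribed pseudogene, read 10.16 and 10.20 against 10.39 and 10.06, with a difference of 0.04 (adjusted p = 0.819). Without CFLARs Tg replicate 2 it differed by 0.21 (adjusted p = 0.0392), and without replicate 1 by -0.12.

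Neutrophil markers were higher in the CFLARs Tg arrays, as Tap1, H2-M2 and H2-Q4 were. Of 6 neutrophil markers 5 rose, against 8.44% of all fitted genes. The log2 of their summed signal was 10.24 and 10.30 in wild-type, 11.44 in XCFX and 12.59 in XCFY. H2-M2 was also higher in XCFY (11.00) than in XCFX (10.65). Tap1 (10.54 and 11.01) and H2-Q4 (10.14 and 10.49) were lower in XCFY than in XCFX. T cell markers, with 1 of 6 on the array fitted, had summed signals of 9.84 and 9.84 against 9.87 and 9.82. For type 3 innate lymphoid cells the sums were 10.36 and 10.39 against 10.32 and 10.33. Of 5 markers on the array, 1 was fitted (Kit, difference 0.03, not called). Il7r, not fitted, read 7.74 and 7.67 in wild-type and 7.19 and 7.19 in CFLARs Tg. Il23r, Ncr1 and Cxcr6, also not fitted, differed by -0.01, 0.05 and 0.01. Of 3 fitted plasma cell markers Sdc1 and Xbp1 rose (by 0.50 and 0.34), while Mzb1 differed by -0.08. Jchain was not fitted and differed by -0.09. Of 4 endothelial markers Kdr and Tek fell (differences -0.30 and -0.29), against 10.9% of all fitted genes. The part of these cells in the class I readings was not tested.

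Other nonclassical genes lay lower, led by H2-Q2. It read 11.81 and 11.88 in wild-type, 11.45 in XCFX and 10.22 in XCFY (difference -1.01, SE 0.41, adjusted p = 0.142). The groups did not overlap, but the CFLARs Tg arrays lay far apart (SD 0.87), and the difference was -1.63 without CFLARs Tg replicate 1 (adjusted p = 0.000102) and -0.40 without replicate 2 (adjusted p = 0.00868). H2-Bl, a transcribed pseudogene, read 8.55 and 8.36 in wild-type and 8.05 and 7.51 in CFLARs Tg (difference -0.67, adjusted p = 0.0737, and 0.0163 with title type as a block). The probe set of H2-T3 and H2-T18, whose product is the thymus leukaemia antigen of the enterocyte surface, read 10.84 and 10.81 in wild-type and 10.12 and 9.38 in CFLARs Tg (difference -1.07, SE 0.25, adjusted p = 0.0574 over all probe sets). In these 3 probe sets the XCFY array was the lowest. H2-Bl passed without CFLARs Tg replicate 1 or 2 (adjusted p = 0.00112 and 0.0246), as did H2-T3 and H2-T18 (adjusted p = 0.000603 and 0.00611).

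Enterocyte markers lay lower in the same arrays, with none called. The mean log2 value of the 9 markers was 13.40 in both wild-type arrays, 13.15 in XCFX and 12.58 in XCFY. All 9 lay lower, beside 7306 of the 13956 fitted genes, and 0 were called, beside 19.3%. Of the 9, 6 had an unadjusted limma p under 0.05, as did 5457 of all fitted genes. Without CFLARs Tg replicate 1 all 9 fell, and without replicate 2, 4 did. The log2 of their summed signal was 16.70 and 16.71 in wild-type and 16.48 and 16.02 in CFLARs Tg. Their part in the lower readings of H2-Q2, H2-Bl and the H2-T3 and H2-T18 probe set was not tested. In RNA from whole tissue, fewer cells of a type and less RNA per cell cannot be told apart.

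Mr1 and Cd1d1, class I-like genes outside the MHC, present vitamin B metabolites to MAIT cells and lipids to natural killer T cells, respectively. Mr1 read 9.45 and 9.46 in wild-type and 8.91 and 9.22 in CFLARs Tg (difference -0.39, SE 0.11, adjusted p = 0.0774, and 0.0483 with title type as a block). Cd1d1 read 7.99 and 7.96 against 7.62 and 7.82 (difference -0.26, adjusted p = 0.0997). For both genes the XCFX array was the lowest, the reverse of H2-Q2. Mr1 passed without CFLARs Tg replicate 1 or 2 (adjusted p = 0.0187 and 0.00287), and Cd1d1 without replicate 2 (adjusted p = 0.00904). H2-Q10, which encodes a secreted class I chain, read 8.91 and 9.04 in wild-type and 8.80 and 8.57 in CFLARs Tg (difference -0.29, adjusted p = 0.110). It passed without CFLARs Tg replicate 1 (adjusted p = 0.00808). H2-T24 read 8.18 and 8.61 against 8.57 and 8.38, with overlap (difference 0.08).

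Classical class I readings were level. The probe set listed first for H2-D1, which also carries H2-K1, read 12.32 and 12.46 in wild-type and 12.53 and 12.38 in CFLARs Tg (difference 0.07, SE 0.09, adjusted p = 0.621 over all probe sets). That listed first for H2-K1 and also for H2-D1 read 12.11 and 12.20 against 12.27 and 12.10 (difference 0.03, SE 0.08, adjusted p = 0.837). In both probe sets the groups overlapped, with XCFX the highest array. The pseudogene H2-K2 read 8.87 and 8.88 in wild-type and 8.98 and 8.89 in CFLARs Tg (difference 0.06, adjusted p = 0.533). The other shared probe sets, for H2-T9, H2-T22 and H2-T10, for H2-T23 with H2-T-ps, and for H2-Q1 with H2-Bl, differed by 0.35, -0.21 and -0.43 and were not called. The first passed without CFLARs Tg replicate 2 (adjusted p = 0.0143) and the last without replicate 1 (adjusted p = 0.00264). Class I genes share long stretches of sequence, and how far each probe set also reads its relatives was not tested.

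**Figure D3:**
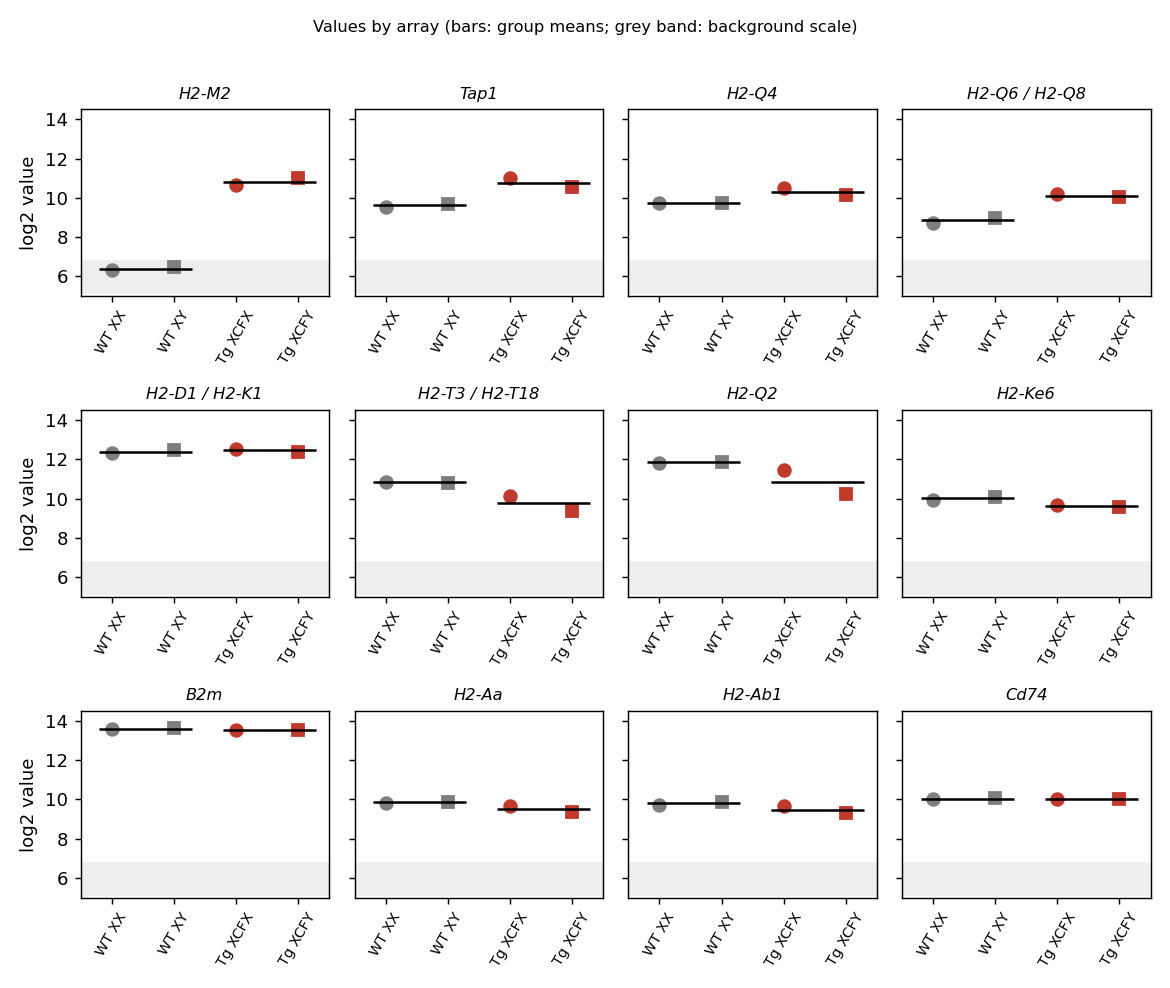
Log2 values of 12 probe sets in the 4 arrays, with wild-type in grey and CFLARs Tg in red, XX-type arrays as circles, XY-type arrays as squares and horizontal bars at the group means. H2-M2 leaves the grey background band (5.13 to 6.78) in CFLARs Tg, Tap1, H2-Q4 and H2-Q6 / H2-Q8 lie higher, and H2-D1 / H2-K1, B2m and Cd74 stay at one level.

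Of the 6 fitted class II genes 4 lay lower and 2 higher, and 0 were called by limma, beside 19.3% of all fitted genes. H2-Aa alone had an unadjusted limma p under 0.05, as did 5457 of all 13956 fitted genes. The median difference of the 6 class II genes was -0.11, against -0.01 over all genes. H2-Aa, the alpha chain of the I-A molecule, read 9.84 and 9.89 in wild-type and 9.65 and 9.34 in CFLARs Tg (difference -0.37, SE 0.12, adjusted p = 0.0886). Its partner H2-Ab1 read 9.74 and 9.85 against 9.66 and 9.31 (difference -0.31, SE 0.13, adjusted p = 0.161). H2-Eb1, the beta chain of I-E, read 9.50 and 9.51 against 9.41 and 9.20 (difference -0.20, SE 0.09, adjusted p = 0.171). In these 3 of the 6 fitted genes, beside 37.6% of all fitted genes, both CFLARs Tg arrays lay below both wild-type arrays. XCFY was the lowest array in the 3 genes. Without CFLARs Tg replicate 1, where the wild-type pair alone gives the spread and 47.0% of all genes were called, they passed (adjusted p = 0.00157, 0.00352 and 0.00822, differences -0.53, -0.49 and -0.30), and without replicate 2 H2-Aa passed (difference -0.22, adjusted p = 0.0402).

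The fitted genes that accompany the dimers were not called either. Cd74, the invariant chain, read 10.00 and 10.06 in wild-type and 10.01 and 10.00 in CFLARs Tg (difference -0.02, SE 0.06, adjusted p = 0.826). Ciita read 7.62 and 7.65 against 7.75 and 7.64 (difference 0.05, SE 0.06). H2-DMa, a chain of the peptide exchange factor, read 9.18 and 9.21 in wild-type and 9.31 and 9.41 in CFLARs Tg, without overlap (difference 0.17, SE 0.06, adjusted p = 0.135). The shared probe set of H2-DMb1 and H2-DMb2, the other chain of that factor, read 7.92 and 7.94 against 8.18 and 8.07, also without overlap (difference 0.19, adjusted p = 0.118). H2-DMa passed without CFLARs Tg replicate 1 (adjusted p = 0.0255), and the H2-DMb probe set without replicate 2 (adjusted p = 0.0402).

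Markers of the cells that carry class II were given beside these values. Of 6 B cell markers on the array, 1 was fitted, and the log2 of their summed signal was 9.75 and 9.79 in wild-type and 9.89 and 9.84 in CFLARs Tg. The fitted B cell marker, Cd79b, read 8.15 and 8.13 in wild-type and 8.28 and 8.24 in CFLARs Tg (difference 0.12, limma adjusted p = 0.183). Cd79a, Cd22, Blk and Pax5 were not fitted and differed by 0.24, 0.12, 0.08 and 0.01. Ms4a1, also not fitted, differed by -0.10 and read 5.73 to 5.94 over the 4 arrays, within the range of background. Of 8 dendritic cell markers 4 were fitted and 1 rose (Batf3, by 0.29), beside 8.44% of all fitted genes. The summed signals were 10.52 and 10.51 against 10.62 and 10.71. Itgax, Ccr7 and Zbtb46 differed by 0.54, 0.21 and -0.02 and were not called. Cd209a, Flt3, Clec9a and Xcr1 were not fitted and differed by -0.33, -0.12, -0.10 and -0.04. Monocyte and macrophage markers had summed signals of 12.22 and 12.22 against 12.42 and 12.92. Of 8 fitted markers 0 were called, beside 19.3% of all fitted genes. By limma 4 had an unadjusted p under 0.05, as did 5457 of all 13956 fitted genes. Itgam, Cd14 and Lyz2 differed by 1.22, 1.11 and 0.99, and Fcgr1 and Cd68 by 0.37 and 0.34. Csf1r, Adgre1 and Cx3cr1 differed by 0.04, 0.15 and -0.12, with the groups overlapping. Ccr2, not fitted, differed by 0.51. The part of these cells in the class II readings was not tested.

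H2-Ke6, the dehydrogenase gene, fell from 9.95 and 10.07 to 9.68 and 9.57 (difference -0.38, SE 0.07, adjusted p = 0.0353), and the groups did not overlap. The call was lost without wild-type replicate 1 or 2 (adjusted p = 0.206 and 0.235). The 15 members that were not fitted had means between 5.18 and 7.32. They were 11 nonclassical genes (H2-T10 besides the M-region genes named above) and 4 class II genes (H2-Ea, H2-Eb2, H2-Oa and H2-Ob). H2-Ea, a transcribed pseudogene in RefSeq, read 6.11 to 6.27. Differences of these 15 genes ran from -0.16 (H2-Ob) to 0.12 (H2-T10). When all 39 members were fitted without a filter, 2 rose and 1 fell, against 12.0% of 19938 genes called in either direction.

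The pairs of arrays of the same title type did not move alike. The difference between genotypes was larger, in the positive direction, in the XX-type pair than in the XY-type pair for 20 of 24 fitted members, and for 46.5% of all fitted genes. For the loading genes this held in 6 of 6, with medians of 0.50 (XX-type) and 0.11 (XY-type), and for class II in 5 of 6, with medians of -0.03 and -0.18. All 19 Nlrc5 probe sets showed it, with medians of 1.18 and 0.71. The exceptions were H2-M2, Mr1, Cd1d1 and H2-DMa. Each pair has 1 array per genotype, so these gaps have no replicate and no test. No fitted member moved by 0.5 or more in opposite directions in the pairs.

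Other genes of the pathway were read from lists of 61 names, of which 45 were fitted. Of these 9 rose and 4 fell, beside the 8.44% and 10.9% of all fitted genes called in those directions. In peptide generation 4 of 10 genes rose and 0 fell, 8 lay higher and 2 lower, and the median was 0.32. Psmb8, a catalytic subunit of the immunoproteasome, read 8.56 and 8.70 in wild-type and 9.75 and 9.30 in CFLARs Tg (difference 0.90, SE 0.16, adjusted p = 0.0313). Its companion Psmb9 differed by 0.63 (adjusted p = 0.0713) and was higher in XCFX (10.42) than in XCFY (9.93), as Tap1 was. The proteasome activator gene Psme3 rose by 0.51 and the cytosolic peptidase gene Thop1 by 0.50. Psme2, which was chosen after its value was seen, rose by 0.30. In the endoplasmic reticulum, the chaperone gene Hspa5 rose by 0.44 and the translocon gene Sec61b by 0.36, whereas the class I folding genes Calr and Pdia3 differed by 0.10 and 0.16 and were not called.

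Among 14 regulators, 2 rose and 1 fell, a share near the 19.3% of all genes called, with a median of 0.02. Socs1, a feedback inhibitor of cytokine signalling, rose by 0.55 (adjusted p = 0.0261), and the interferon-gamma receptor gene Ifngr1 rose by 0.32. Irf1 read 10.86 and 10.89 in wild-type and 11.55 and 11.19 in CFLARs Tg (difference 0.49, adjusted p = 0.0629). Rfxank, a subunit of the RFX complex that binds class II promoters, fell by 0.39 (adjusted p = 0.0250). Of 4 fitted costimulation and checkpoint genes, Cd274, which encodes PD-L1, rose from 7.99 and 8.18 to 9.44 and 9.51 (difference 1.39, SE 0.09, adjusted p = 0.00791). Icosl, the ligand of the T cell receptor ICOS, fell by 0.55 (adjusted p = 0.0168), while Cd40 and Cd80 differed by 0.09 and -0.01. The fitted class I-like genes Raet1d, Procr and Hfe were not called (differences 0.09, 0.12 and 0.02).

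Genes of class II proteolysis and traffic lay lower in 8 of 9, with a median of -0.33, and 2 of them fell. Of all 13956 fitted genes 7306 lay lower, and 10.9% fell. The 2 genes of the list that fell were Marchf8 and Ifi30. Marchf8, a ubiquitin ligase that removes class II from the surface, fell by 0.45 (adjusted p = 0.0427). Ifi30, the lysosomal thiol reductase, fell by 0.33 (chosen after its value was seen). Its limma adjusted p rounds to 0.05, so it lies at the threshold. Ctsl, a lysosomal protease, read 12.84 and 13.01 in wild-type and 12.36 and 11.69 in CFLARs Tg (difference -0.90, adjusted p = 0.0592). Ap1m2 and Ctsb differed by -0.54 and -0.35 and were not called, and Ctss, the main invariant chain protease of antigen-presenting cells, differed by 0.01 (SE 0.09, adjusted p = 0.918; chosen after its value was seen). Without wild-type replicate 1, 0 of the 45 pathway genes passed, and without wild-type replicate 2 Cd274 alone did. Without CFLARs Tg replicate 1, 7 class II proteolysis genes fell, and without replicate 2, 5 did, in fits that called 47.0% and 32.4% of all genes. Peptide generation then had 6 genes higher and 1 lower without replicate 1, and 7 higher without replicate 2.

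**Figure D4:**
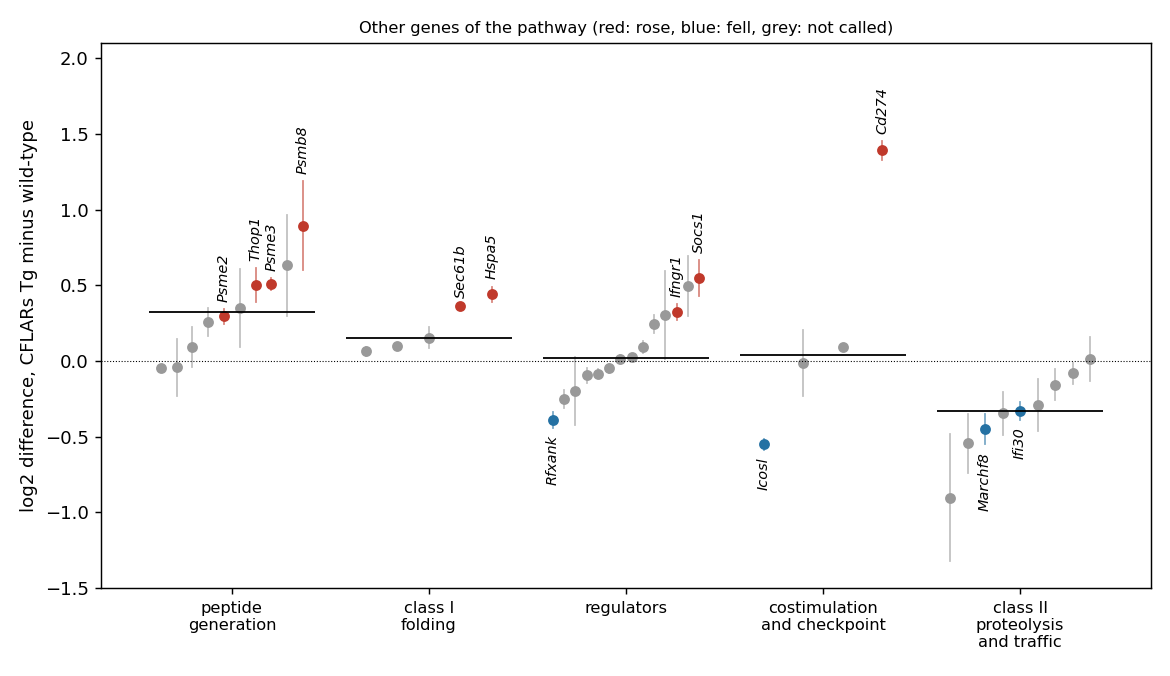
Log2 differences (CFLARs Tg minus wild-type) of the fitted pathway genes in 5 lists, with points at the mean, thin lines joining the values of the XX-type and XY-type pairs, and black bars at the list medians. Peptide generation has its median at 0.32 and class II proteolysis and traffic at -0.33, with Cd274 highest at 1.39.

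How many members were called depended on which array was left out. Without wild-type replicate 1 or 2, 1 of the 24 passed, H2-M2, while 0.301% and 0.287% of all genes did. Without CFLARs Tg replicate 1, 6 rose and 8 fell, and without replicate 2, 8 rose and 6 fell, against 47.0% and 32.4% of all genes called. When limma's treat asked for a change beyond 0.5 on the log2 scale, H2-M2 passed (adjusted p = 0.00147), as did 0.451% of all genes. With title type as a block, H2-Bl and Mr1 were called as lower in addition (adjusted p = 0.0163 and 0.0483), so that 6 of 24 were called against 22.3% of all genes.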

How the data were processed

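The authors deposited a table of log2 signals that covers 28856 probe sets of an Affymetrix mouse array on 4 samples, with RNA labelled with biotin per the labels' protocols. How they summarised, background-corrected and normalized them is not given in the sources used here. Signals were used without further transformation. Platform annotation gave 1 symbol to 21789 probe sets, several to 1621 and none to 5446. RefSeq identifiers (GRCm38.p6) matched 39 of 39 members and changed 0 symbols. Each gene was represented by its brightest probe set (highest mean of the 4 arrays).

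After the lowest 30% of genes by mean were left out, 13956 genes were fitted with limma 3.58.1 in R 4.3.3 (lmFit and eBayes, 2 arrays against 2, no covariates, 2 residual and 2.64 prior degrees of freedom). Adjusted p-values (Benjamini-Hochberg, threshold 0.05) run over all genes fitted. The procedure was tested on simulated probe set data in which both groups had the spread of the wild-type arrays. That test does not cover the wider spread between the CFLARs Tg arrays. Probe sets with several symbols were tested in a fit over 20199 probe sets, added after the data were seen. Differences reaching background understate the change in RNA, and the number of arrays limits the precision. Members and lists were chosen with earlier results of these data known. Members were named by rule: all of them, and up to 4 genes per other list with the largest difference. Further markers of B cells, plasma cells, dendritic cells, monocytes and macrophages, and type 3 innate lymphoid cells were named after their values were seen. The promoter sequences are from RefSeq. Protein sequences were not used here.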

Additional observations from a re-analysis of the deposited data

Results flagged for a closer look

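The probe set annotated to H2-Q6 and H2-Q8 carries several symbols and so lies outside the comparison by gene, and its signal was above that of the wild-type arrays. It differed by 1.26 on the log2 scale, and both CFLARs Tg arrays (10.19 and 10.03) were above both wild-type arrays (8.73 and 8.97). Of the 8 shared probe sets that carry MHC symbols alone, it was the only one called. The comparison has 2 arrays per group, too few for a test of single outlying samples.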

How the results depend on the processing

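Of 24 fitted members 4 were called, 2 of them class I genes, 1 a loading gene and 0 class II. With a trend in the variance or quantile normalization these counts did not change. With the lowest 50% left out, after median centring or without a filter, 1 class I gene was called. With the 50% filter this was because H2-M2 was not fitted. With title type as a block 4 class I genes were called. With the mean of probe sets 2 loading genes were called. Against a minimum difference of 0.5, 1 member was called, and 0 loading genes. Leaving out 1 array at a time gave 1 to 14 members, 1 to 8 class I genes, 0 to 4 loading genes and 0 to 4 class II genes, and the cause was not tested. Directions turned when 1 array was left out for Cd74 (range -0.051 to 0.011, highest without wild-type replicate 2), H2-T24 (-0.14 to 0.29, below 0 without wild-type replicate 1 and, at -0.020, without CFLARs Tg replicate 1), H2-Q5 (-0.12 to 0.21) and Tapbp (-0.059 to 0.22), the last pair without CFLARs Tg replicate 1. The labels number no replicates. The fit paired by title type, as a block, called 6 members, adding H2-Bl and Mr1, and changed no other member's call. The number of arrays, 2 a group, limits the precision.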
